A study of Mus musculus with 14 samples.

Results

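Immediate early genes are transcribed within minutes of a stimulus, by transcription factors that are already present in the cell and are activated by phosphorylation. In neurons the usual stimuli are synaptic activity, calcium entry and growth factors, and in other cells they include stress and the handling of tissue. Most of their products are themselves transcription regulators that switch on a later set of genes, and their transcripts are short-lived, so that levels are low in resting tissue. The values reported here are those of 10 such genes, chosen by name: the AP-1 subunits Fos, Fosb and Junb, the zinc-finger factors Egr1, Egr2 and Egr3, the transcription regulators Npas4, Nr4a1 and Ier2, and the phosphatase Dusp1. Each was found as the highest assembled locus carrying its name, among 20439 gene names in a table of 59796 loci.

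The libraries are RNA-seq of whole embryonic hippocampus, taken between E16 and E18, from 2 mouse models of Down syndrome. The 3 libraries of 189N3 mice, which carry an extra copy of the Dyrk1a locus on a bacterial artificial chromosome, were compared with 3 libraries of wild-type littermates. The 4 libraries of Dp(16)1Yey/+ mice, heterozygous for a duplication of the part of chromosome 16 that matches human chromosome 21 and holds Dyrk1a, were compared with 4 libraries of their own wild-type littermates (these groups are marked Dp16 and WT of Dp16 in the plots). The duplication and the extra locus are present in all tissues, so neither model is limited to neurons. Replicate numbers follow the labels and begin at 0. Values are fragments per locus divided by 1 size factor per library, called normalized fragments here, and 1 unit is close to 1 read pair. The study's methods give 3 or 4 genotyped embryos per genotype, the same as the numbers of libraries. Nothing in the labels ties each library to a separate embryo, and p-values are taken to measure only the spread between these libraries.

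The libraries held 20809135 to 29098453 fragments. Dyrk1a, the kinase gene that both models carry in excess, measured 3938 to 5877 normalized fragments in 189N3 mice against 2126 to 2977 in littermates. The 2 groups lay apart, as they did for 4.98% of all loci. The log2 fold change was 0.89 ± 0.24 (SE), with an exact permutation p of 0.1, the smallest this design can give. In Dp(16)1Yey/+ mice Dyrk1a measured 2124 to 4781 against 2397 to 3175, with a log2 fold change of 0.22 ± 0.23 (SE). Dyrk1a had no adjusted p under 0.05 in limma in either model. The lack of such a p below therefore does not exclude a change of this size. The lowest Dyrk1a value, 2124, was that of Dp(16)1Yey/+ replicate 1. This library also stood apart in genes of red blood cells, whose 7 named members summed to 48742 normalized fragments against 6153 to 22570 in the other 3 libraries of its group. Among the wild-type controls of Dp(16)1Yey/+ mice some libraries were nearly alike. Replicates 0 and 1 differed by 1.65 times the counting noise in the median locus and replicates 2 and 3 by 2.03 times, against 9.37 to 117.8 times for other pairs of libraries within a group. All 4 were kept as samples. Of the markers of the hippocampus and forebrain, all 11 that could be named were detected in every group.

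Regulatory sequence is shown for 4 members because these genes are known for promoters that respond to the cAMP response element binding protein (CREB), whose full site, the CRE, reads TGACGTCA. RefSeq promoter entries (build GRCm38.p6) were matched for 7 of the 10 members; Egr1, Egr3 and Ier2 were not matched. Only the 250 bases before the start site are shown, and capitals mark the CRE half-site TGACG or, on the other strand, CGTCA. The 4 sequences lie at chr12:85473640-85473889 (+ strand) for Fos, chr19:4989972-4990221 (- strand) for Npas4, chr15:101266596-101266845 (+ strand) for Nr4a1 and chr17:26508473-26508722 (- strand) for Dusp1. Fos is given as the best known member, Npas4 as the one that responds to calcium in neurons, Nr4a1 for its 4 half-sites and Dusp1 for its full CRE.
Fos: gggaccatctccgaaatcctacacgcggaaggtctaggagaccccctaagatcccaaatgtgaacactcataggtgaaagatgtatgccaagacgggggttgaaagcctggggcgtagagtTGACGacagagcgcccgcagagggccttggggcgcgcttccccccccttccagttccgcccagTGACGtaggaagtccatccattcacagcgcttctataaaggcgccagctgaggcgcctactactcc
Npas4: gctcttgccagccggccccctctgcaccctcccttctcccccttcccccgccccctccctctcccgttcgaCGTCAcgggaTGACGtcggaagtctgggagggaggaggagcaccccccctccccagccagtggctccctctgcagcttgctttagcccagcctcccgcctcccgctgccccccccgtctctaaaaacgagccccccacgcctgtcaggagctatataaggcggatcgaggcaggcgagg
Nr4a1: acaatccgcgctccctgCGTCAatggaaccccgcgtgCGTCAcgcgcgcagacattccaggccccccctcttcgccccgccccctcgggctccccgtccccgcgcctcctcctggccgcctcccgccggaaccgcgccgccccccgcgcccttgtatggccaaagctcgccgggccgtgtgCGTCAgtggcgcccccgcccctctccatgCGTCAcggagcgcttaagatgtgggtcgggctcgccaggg
Dusp1: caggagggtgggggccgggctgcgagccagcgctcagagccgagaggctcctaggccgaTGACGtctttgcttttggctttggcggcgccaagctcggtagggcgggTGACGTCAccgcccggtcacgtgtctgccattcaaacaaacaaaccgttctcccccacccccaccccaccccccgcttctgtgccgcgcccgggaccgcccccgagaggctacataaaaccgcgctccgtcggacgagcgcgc

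A half-site was found in all 7 members with an entry, counting Egr2, which has 5 entries, where any of them held it. Over all 32851 promoter windows of the same length, 17.8% held a half-site. The full CRE, which contains the half-site on both strands, was found in Dusp1 alone of the 7 members and in 1.55% of all windows. A CArG box, the site of serum response factor, was found only in Egr2 of the 7 members (1.47% of all windows). The AP-1 site TGANTCA was found in none of the 7 members and in 6.75% of all windows, and the EGR site GCGNGGGCG, read on both strands, in Fosb and Nr4a1 (4.7% of all windows). A match describes letters in the window and does not show that a factor binds there.

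To compare levels between genes, values were divided by the length of the gene's merged GENCODE exons. Over the 7 wild-type libraries Dusp1, which dephosphorylates and so switches off MAP kinases, was the highest, at 107.5 ± 24.7 normalized fragments per kb (SD, n = 7). Junb followed at 33.0 ± 7.89 per kb and Ier2, a small nuclear regulator, at 24.9 ± 5.68 per kb. Dusp1 was above Junb in 7 of the 7 wild-type libraries, Junb above Ier2 in 6, and Ier2 above Egr3 in 7. These 3 genes were the upper end of the list in the wild-type libraries.

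The next members lay closer together. Egr3 measured 11.1 ± 7.48 normalized fragments per kb (SD, n = 7), Fos 7.73 ± 1.90 and Nr4a1, an orphan nuclear receptor, 7.02 ± 1.25. Egr3 was above Fos in 4 of the 7 wild-type libraries and Fos above Nr4a1 in 3, so the order of these neighbours did not hold from library to library. Nr4a1 was above Egr1 in 7 of 7 libraries. Egr1 (4.24 ± 1.64 per kb) and Egr2 (3.73 ± 1.36 per kb) changed places, with Egr1 higher in 4 of 7, and Egr2 was above Npas4 (2.84 ± 1.98 per kb) in 4 of 7. Fosb came last at 0.228 ± 0.163 per kb.

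**Figure D1:**
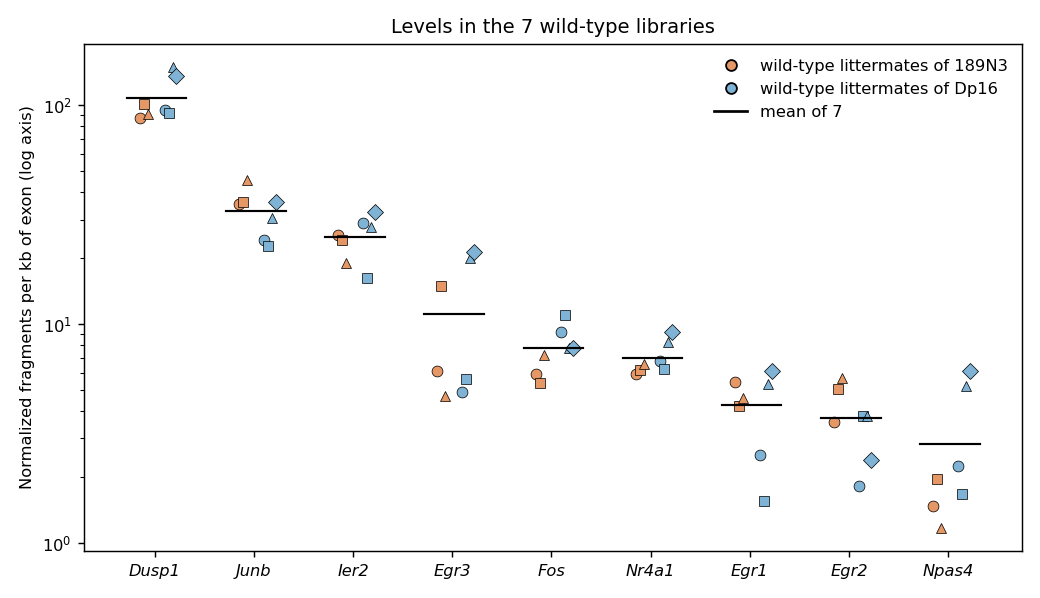
Level of 9 members in the 7 wild-type libraries, in normalized fragments per kb of exon on a log axis, with 1 point per library (circle, square, triangle and diamond for replicates 0, 1, 2 and 3) and a line at the mean. Dusp1 stands highest at 107.5 per kb and Npas4 lowest at 2.84 per kb. Fosb is left out because 1 of these libraries had no fragment of it.

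As unscaled values, these are few fragments. Only Dusp1 had a mean above 100 normalized fragments over the 14 libraries (344.2), which placed it at percentile 68.2 of the loci with a mean of at least 10. The other 7 that reached a mean of 10 lay between percentile 8.24 (Egr2, mean 14.1) and percentile 40.3 (Junb, mean 71.0). Npas4 had a mean of 8.27 and Fosb of 1.05. With so few fragments, a difference in the low members is measured with wide error, and the tests below must be read with this in view.

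The members also differed in how far the spread between replicates exceeded counting noise. Within groups, the variance between libraries of Dusp1 was 24.2 times the variance that counting alone gives, and that of Egr3 18.4 times. Ier2 (3.95 times), Egr1 (3.35), Nr4a1 (3.34), Npas4 (3.04) and Junb (1.89) were in between. Pooled over the groups, libraries differed about as much as counting noise alone for Fos (1.29 times), Egr2 (0.779) and Fosb (0.571). In the 189N3 group by itself the ratio of Fos was 3.97, against 0.315 to 0.842 in the other groups. The spread of Egr3 and Dusp1 is therefore mostly spread between libraries. That of Egr2 and Fosb, and of Fos outside the 189N3 group, is close to the precision that their fragments allow. At equal spread relative to the mean, this ratio is larger for a gene with more fragments. It therefore does not rank the members by relative spread. Over the wild-type libraries Dusp1 measured 107.5 ± 24.7 normalized fragments per kb (SD, n = 7) and Npas4 2.84 ± 1.98. Relative to its mean, Npas4 thus varied more than Dusp1, although its ratio was lower.

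The first comparison asks whether an extra copy of Dyrk1a alone moved these genes. In 189N3 mice 8 of the 10 members had a mean of at least 10 in the 6 libraries and were tested, and Fosb and Npas4 were not. None of the 8 had an adjusted p under 0.05 in limma, where the share over all 35899 loci was 0% as well, and none had an unadjusted p under 0.05 (1.87% of all loci). For none of the 8 did the 2 groups lie apart (4.98% of all loci). Fold changes on the log2(value + 1) scale ran from -0.67 for Ier2 to 0.35 for Egr3. Their median was -0.10, beside -0.04 over all loci tested, with 3 above 0 and 5 below 0, where 56.2% of all loci were below 0. With 3 samples against 3, the exact permutation test cannot give a p under 0.1.

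The AP-1 subunits, which pair with Jun family proteins to bind DNA, are taken first. Fos (12:85473890-85477273, + strand, build GRCm38) measured 7.61, 21.2 and 13.5 normalized fragments in 189N3 replicates 0, 1 and 2, against 13.9, 12.6 and 16.9 in the wild-type littermates. The lowest and the highest of these 6 libraries were both transgenic. Its log2 fold change was -0.13 ± 0.41 (SE). Junb (8:84974484-84978718, - strand), an AP-1 subunit that restrains the activity of Jun, measured 83.8, 70.2 and 92.4 against 81.4, 83.0 and 105.1. The ranges overlapped widely, and the log2 fold change was -0.13 ± 0.26 (SE). Fosb (7:19302696-19310051, - strand) had 2, 1 and 0 fragments in the 189N3 libraries and 1, 1 and 0 in the littermates, at or under the 3 fragments taken as the floor, so no fold is given.

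The EGR factors bind GC-rich sites through zinc fingers. Egr1 (18:34859823-34864984, + strand), a member often used to mark active neurons, measured 26.2, 14.7 and 34.2 normalized fragments in 189N3 mice against 24.3, 19.0 and 20.5, with a log2 fold change of 0.16 ± 0.36 (SE). All 3 wild-type libraries lay inside the transgenic range. Egr2 (10:67535475-67542188, + strand), which is also the regulator of myelination in Schwann cells, measured 20.3, 18.8 and 16.6 against 12.1, 17.1 and 19.3. On the log2 scale the change of Egr2 was 0.20 ± 0.35 (SE). Egr3 (14:70077203-70082614, + strand) measured 29.6, 30.2 and 86.1 in 189N3 mice and 26.9, 65.9 and 20.5 in the littermates. Each group held a single high library, 189N3 replicate 2 and wild-type replicate 1, and the log2 fold change was 0.35 ± 0.46 (SE). Without 189N3 replicate 2 that of Egr3 was -0.15 and without wild-type replicate 1 it was 0.83, so the sign rested on which high library was kept.

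Of the other regulators, Ier2 (8:84661331-84662852, - strand) had the largest difference of the list in 189N3 mice. It measured 27.1, 9.79 and 36.3 normalized fragments in 189N3 mice against 39.0, 37.0 and 29.0 in the littermates. The groups overlapped, since replicate 2 of 189N3 lay above the lowest littermate. The log2 fold change was -0.67 ± 0.41 (SE), with p = 0.126 unadjusted and 1.00 adjusted in limma, and an exact permutation p of 0.2. It rested on replicate 1, without which it was -0.14. Nr4a1 (15:101254269-101274795, + strand) measured 28.8, 8.16 and 33.2 against 20.8, 21.7 and 23.0, with a log2 fold change of -0.11 ± 0.45 (SE) that became 0.49 without 189N3 replicate 1. Npas4 (19:4984355-4990316, - strand), a factor of neurons that responds to calcium, measured 5.08, 3.26 and 5.19 against 6.06, 8.12 and 4.83 and was too low to be tested.

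Dusp1 (17:26505590-26562128, - strand) measured 347.7, 166.4 and 423.4 normalized fragments in 189N3 mice and 289.4, 333.9 and 302.1 in the littermates. Here too replicate 1 of 189N3 was low and the others were higher than every littermate. Its log2 fold change was -0.08 ± 0.31 (SE), and without that replicate 0.32. Replicate 1 of 189N3 held the lowest value of its group for Junb, Egr1, Npas4, Nr4a1, Ier2 and Dusp1 and the highest for Fos. The 10 members together summed to 343.5 normalized fragments in this library, against 577.8 and 741.0 in the other 189N3 libraries and 514.6 to 599.3 in the littermates. Without it the median log2 fold change of the 8 tested members was 0.26 in place of -0.10.

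**Figure D2:**
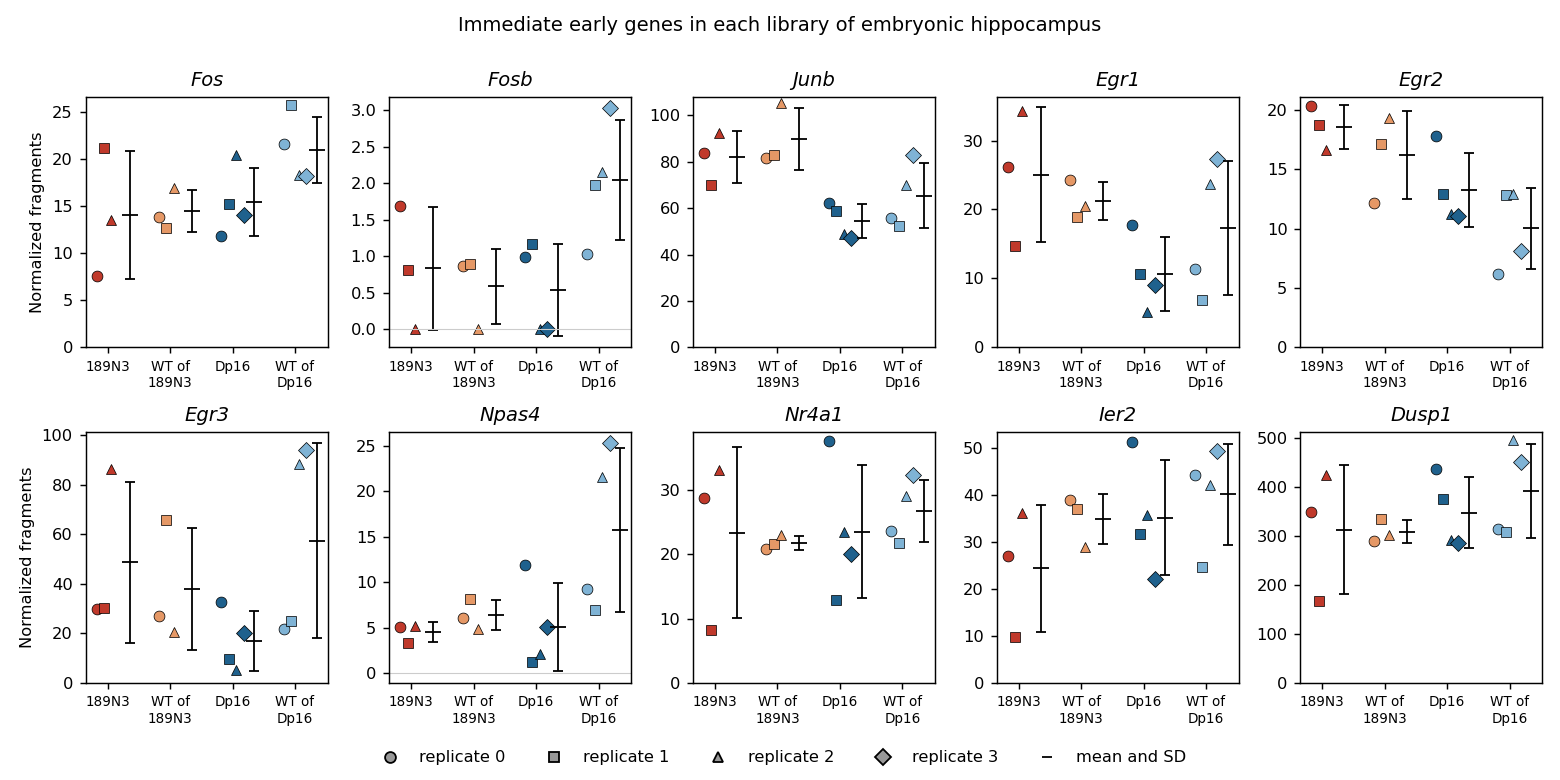
Normalized fragments of each of the 10 members (vertical axes, linear) in the 14 libraries, by group, with 1 symbol per replicate number and the mean and SD of the group beside it. Egr3 reaches 88.5 and 94.0 and Npas4 21.6 and 25.3 in wild-type littermates 2 and 3 of Dp16, while replicate 1 of 189N3 is low for Dusp1 (166.4), Ier2 (9.79) and Nr4a1 (8.16).

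The second comparison asks the same of the larger duplication. In Dp(16)1Yey/+ mice 9 of the 10 members reached a mean of 10, but Npas4 did so only through its littermates, so its values are given without a test and the counts are over the other 8. None had an adjusted p under 0.05 in limma (0% of 36024 loci). An unadjusted p under 0.05 was found for 1 of the 8, Egr3 (3.53% of all loci), which was lower than in the littermates (1.82% of all loci were lower by this rule). The groups lay apart for none of the 8 (2.45% of all loci). The log2 fold change was below 0 for 7 of the 8 and above 0 for Egr2 alone, and the median was -0.25 beside 0.03 over all loci, of which 45.1% were below 0. The median of the members was 0.01 without littermates 2 and 3 and -0.47 without littermates 0 and 1, alternatives added after the values were seen.

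Egr3 showed the largest difference of the list in this model. It measured 32.6, 9.40, 5.10 and 20.1 normalized fragments in Dp(16)1Yey/+ replicates 0 to 3, against 21.6, 24.7, 88.5 and 94.0 in the littermates. Littermates 2 and 3 were far above every transgenic library, whereas littermates 0 and 1 lay below the highest of them. The log2 fold change was -1.69 ± 0.61 (SE), with p = 0.0171 unadjusted and 0.909 adjusted in limma, and the exact permutation p was 0.114. Over the alternatives the adjusted p of limma, edgeR or DESeq2 ran from 0.358 to 1.00. Without littermates 2 and 3 the fold change was -0.73 ± 0.61 (SE), and without littermates 0 and 1 it was -2.66 ± 0.59 (SE). The unadjusted p of limma was 0.263 in the first case and 0.0011 in the second. It was 0.0508 without Dp(16)1Yey/+ replicate 1 and 0.0526 without either littermate 2 or littermate 3 alone. The study chose Egr3 for its own list of changed genes on these same libraries, so its direction here is not independent evidence.

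Npas4 followed the same libraries. It measured 11.9, 1.18, 2.04 and 5.03 normalized fragments in Dp(16)1Yey/+ mice against 9.27, 6.93, 21.6 and 25.3, which as counts were 12, 1, 2 and 5 fragments against 9, 7, 20 and 25. Littermates 2 and 3 were again the highest of all 14 libraries. The means were 5.03 ± 4.85 (SD, n = 4) and 15.8 ± 9.03 (SD, n = 4), and the groups overlapped. Egr1 had the same shape, with 17.8, 10.6, 5.10 and 9.06 against 11.3, 6.93, 23.7 and 27.3. Its log2 fold change was -0.59 ± 0.48 (SE), or 0.12 ± 0.53 without littermates 2 and 3.

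The AP-1 subunits overlapped between groups in this model. Fos measured 11.9, 15.3, 20.4 and 14.1 normalized fragments in Dp(16)1Yey/+ mice against 21.6, 25.7, 18.4 and 18.2, so that 3 of the 4 transgenic libraries lay below every littermate. The log2 fold change was -0.43 ± 0.27 (SE), with p = 0.136 unadjusted in limma and an exact permutation p of 0.0857. Unlike Egr3, Fos was not highest in littermates 2 and 3 but in 0 and 1, and its fold change was -0.61 without littermates 2 and 3. Junb measured 62.3, 58.8, 49.0 and 47.3 against 55.6, 52.4, 70.2 and 82.9, with a log2 fold change of -0.25 ± 0.21 (SE). Fosb had 1, 1, 0 and 0 fragments in Dp(16)1Yey/+ mice and 1, 2, 2 and 3 in the littermates, and again no fold is given.

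Egr2 was the member above 0. It measured 17.8, 12.9, 11.2 and 11.1 normalized fragments in Dp(16)1Yey/+ mice against 6.18, 12.9, 13.0 and 8.09. The ranges overlapped and the log2 fold change was 0.40 ± 0.34 (SE). Nr4a1 measured 37.6, 12.9, 23.5 and 20.1 against 23.7, 21.8, 29.1 and 32.4, with a log2 fold change of -0.26 ± 0.32 (SE). Ier2 measured 51.4, 31.7, 35.7 and 22.1 against 44.3, 24.7, 42.1 and 49.6, with a log2 fold change of -0.20 ± 0.30 (SE). For both genes the transgenic libraries reached beyond the littermates on either side. Dusp1 measured 436.1, 376.1, 291.9 and 285.8 against 314.2, 306.8, 495.5 and 450.0, where the log2 fold change was -0.16 ± 0.22 (SE).

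**Figure D3:**
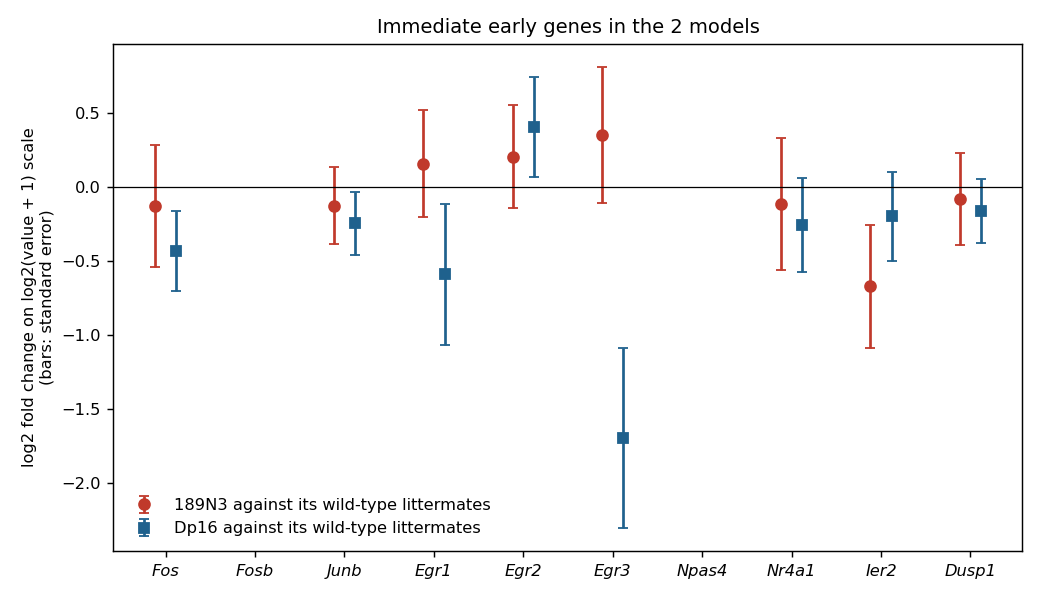
Log2 fold change of each tested member against its own wild-type littermates on the log2(value + 1) scale (vertical axis), with bars of 1 standard error from limma, in 189N3 (circles) and Dp16 (squares). Egr3 in Dp16 (-1.69) lies lowest, and the other points are between -0.67 and 0.40. Fosb and Npas4 have no point because their mean was under 10 in at least 1 group of each comparison.

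An interaction, the 189N3 change subtracted from the Dp(16)1Yey/+ change, tested whether the models differed. None of the 8 members tested had an adjusted p under 0.05 in limma (0% of 36045 loci). Egr3 was the only member with an unadjusted p under 0.05, at -2.05 ± 0.91 (SE) on the log2 scale with an adjusted p of 0.922 in limma, where 2.66% of all loci passed by this rule and 1.12% were lower. Without littermates 2 and 3 of Dp(16)1Yey/+ mice it was -1.08 ± 0.86 (SE), with an unadjusted p of 0.229 in limma, and without littermates 0 and 1 it was -3.01 ± 0.85 (SE), with an unadjusted p of 0.00302. The unadjusted p was also above 0.05 with the nearly alike pairs averaged (0.0526), with the replicate number as a block (0.0566) and on leaving out 7 of the 14 libraries in turn. The estimates for the other 7 members lay between -0.75 (Egr1) and 0.47 (Ier2).

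Littermates 2 and 3 of Dp(16)1Yey/+ mice also stood apart in genes that mark brain regions. The genes named in this paragraph were chosen after their values were seen. Egr3 was 3.94 times as high in littermates 2 and 3 as in 0 and 1, Npas4 2.89 times, Egr1 2.80 times, Dusp1 1.52 times and Fos 0.772 times. Drd2, the dopamine receptor of the indirect striatal pathway, measured 68.0 and 84.9 normalized fragments in littermates 2 and 3 against 4.12 and 2.97 in 0 and 1. Penk, the enkephalin precursor of the same striatal neurons, measured 144.6 and 162.8 against 17.5 and 27.7. In each of the other groups the library with the highest Egr3 also had the highest Drd2 and Penk. These were 189N3 replicate 2 (Egr3 86.1, Drd2 29.1), wild-type replicate 1 of 189N3 (65.9 and 16.2) and Dp(16)1Yey/+ replicate 0 (32.6 and 18.8). Between groups the order could differ, since Drd2 was higher in Dp(16)1Yey/+ replicate 0 than in wild-type replicate 1 of 189N3. Zbtb20, a factor that marks the hippocampal field, was lower in littermates 2 and 3, with 2254 and 2546 against 7734 and 7398 in 0 and 1. Tubb3, the tubulin of neurons, measured 29647 and 32149 against 16371 and 15384. The 11 named markers of hippocampus and forebrain, which include both, summed to 50832 and 53597 against 40817 and 39178. The list as a sum was therefore not lower in littermates 2 and 3, but Tubb3 was its largest part. The sum thus does not give the direction of the other markers. Of these, Prox1 was lower in littermates 2 and 3, with 505.2 and 553.1 against 856.1 and 810.5 in 0 and 1. Snap25 was higher, with 2262 and 2129 against 1869 and 1895.

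The 10 named striatal markers summed to 2224 and 2272 normalized fragments in littermates 2 and 3, against 788.1 to 809.5 in 0 and 1 and 637.8 to 1527 in Dp(16)1Yey/+ mice. In the 189N3 cohort the sums were 960.2 to 1665 in 189N3 mice and 804.8 to 1012 in the littermates, and no marker of the list was at 0 in all libraries of a group. The highest sum of that cohort was in 189N3 replicate 2, where Egr3 was also highest. The next highest Egr3, in wild-type replicate 1, came with a sum of 1012, the highest of the littermates. This sum was below the 1184 of 189N3 replicate 0, where Egr3 was 29.6. Among Dp(16)1Yey/+ mice the highest sum was that of replicate 1, where Egr3 was 9.40. Of 10 striatal markers tested in Dp(16)1Yey/+ mice, 9 had a log2 fold change below 0, where 45.1% of all loci did. None had an adjusted p under 0.05 in limma (0% of all loci), and the median was -0.37 beside 0.03 over all loci. The study names Adora2a, Penk, Pdyn and Tac1, which are on this list, among its genes lower in this model on these same libraries. The direction of the list here is therefore not independent evidence. The part of these markers in the values of Egr3, Npas4 and Egr1 was not tested. In whole tissue, more cells of a type and more RNA per cell cannot be told apart.

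**Figure D4:**
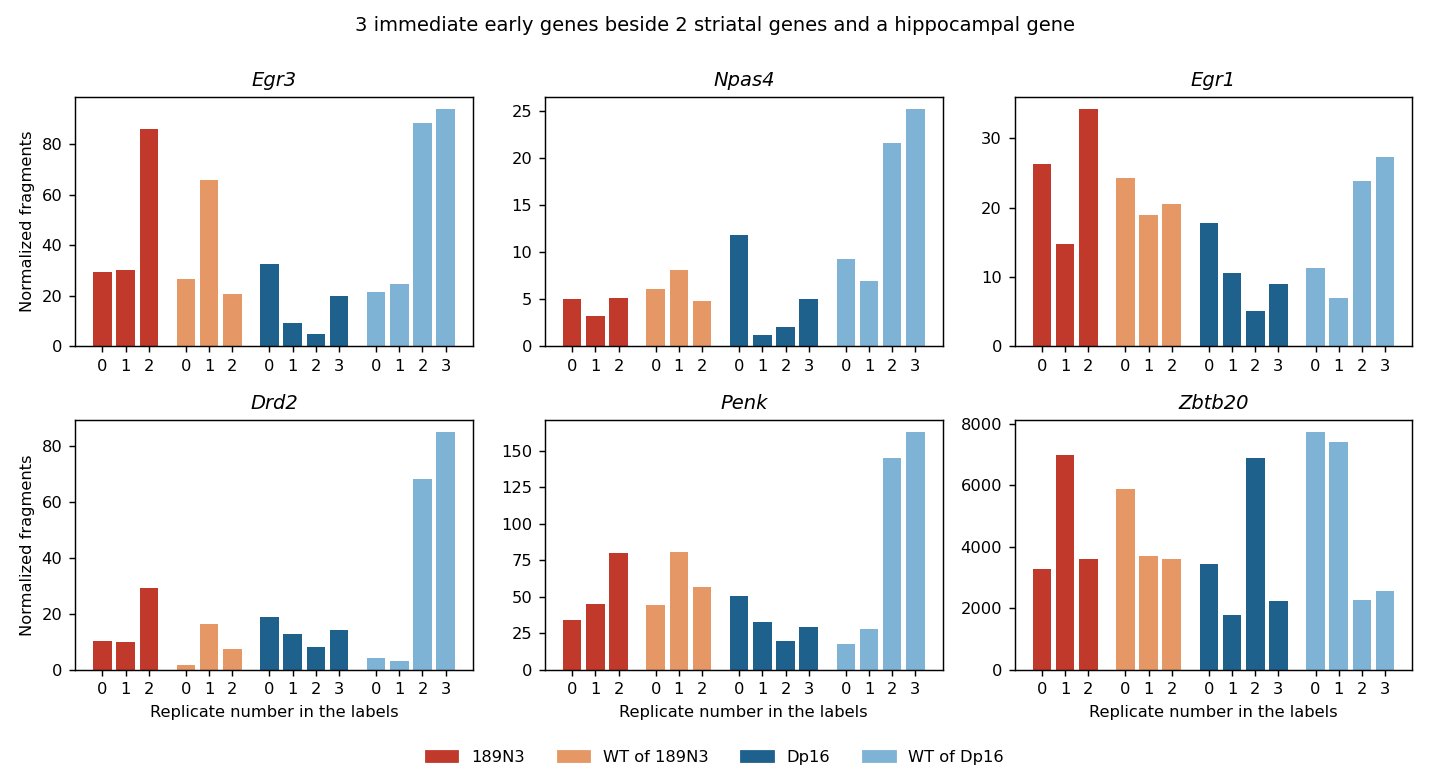
Normalized fragments (vertical axes from 0) of Egr3, Npas4 and Egr1, of the striatal genes Drd2 and Penk and of the hippocampal gene Zbtb20, with 1 bar per library, coloured by group and numbered by replicate. Wild-type littermates 2 and 3 of Dp16 have the highest bars for Egr3, Npas4, Drd2 and Penk and lower bars for Zbtb20 (2254 and 2546) than littermates 0 and 1.

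The 2 groups of wild types, whose line, litter and any batch cannot be told apart, were set against each other as a measure of the variation between cohorts. Npas4 again reached a mean of 10 only through the littermates of Dp(16)1Yey/+ mice and is left out. None of the other 8 members tested had an adjusted p under 0.05 in limma, where 3.75% of 36047 loci did. Junb was the only member with an unadjusted p under 0.05, at a log2 difference of -0.47 ± 0.21 (SE) in the Dp(16)1Yey/+ cohort, with an adjusted p of 0.187 in limma. By the unadjusted rule 26% of all loci passed, and 10.5% were lower. Fos was higher in all 4 littermates of Dp(16)1Yey/+ mice (18.2 to 25.7 normalized fragments) than in all 3 littermates of 189N3 mice (12.6 to 16.9). The groups of the other 7 members overlapped, where 25.5% of all loci did not, and 14.7% of all loci were higher without overlap like Fos. The log2 difference of Fos was 0.50 ± 0.25 (SE), with p = 0.0744 unadjusted and 0.238 adjusted in limma, and its exact permutation p was 0.029, the smallest this design can give.

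Across the 14 libraries several members were high or low together. In littermates 2 and 3 of Dp(16)1Yey/+ mice 9 of the 10 members were above their own mean over all libraries, and in Dp(16)1Yey/+ replicate 3 none was. In 189N3 replicate 2 there were 7 members above their mean and in 189N3 replicate 1 there were 4. The named loci most like the members were found among 11239 with a mean of at least 100, by Pearson's r over the 14 libraries between the locus and the mean of the members. Both were taken as deviations from the group mean. Each member was divided by its SD before averaging, so that Fosb weighed as much as Dusp1. The 5 loci with the highest r were Map3k10 (r = 0.99), a kinase of the JNK pathway, Ly6h (0.98), Svop (0.98), a protein of synaptic vesicles, Tmem229b (0.98) and Ttc9b (0.98). They were picked as the highest of many loci, and the libraries they share include the nearly alike pairs, so the values are a description without a test.

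Genes of the same pathway were taken from lists written by name. Of 35 other rapid response genes tested (41 of 43 named), none had an adjusted p under 0.05 in either model. Over those with a mean of at least 10 in both groups, the median log2 fold change was 0.10 in 189N3 mice (34 genes) and -0.19 in Dp(16)1Yey/+ mice (33 genes). Gadd45g, a stress-response gene, was the only one of them with an unadjusted p under 0.05 in 189N3 mice (1.05% of all loci were lower by this rule). It measured 28.4 ± 2.51 (SD, n = 3) against 50.0 ± 12.6 (SD, n = 3) normalized fragments, with no overlap between the groups (2.99% of all loci were lower without overlap). For Gadd45g the log2 fold change was -0.77 ± 0.30 (SE), with an adjusted p of 1.00 in limma and an exact permutation p of 0.1. Markers of red blood cells, of skin, and of muscle and connective tissue were lower in 189N3 mice as well, but not those of every tissue. Of endothelial and mural genes 9 of 12 were above 0, and of microglia genes 3 of 9 (43.8% of all loci). Of choroid plexus genes with a mean of at least 10 in both groups, 1 of 3 was above 0. All 6 erythroid genes tested had an unadjusted p under 0.05, and the 7 named ones summed to 13935 to 22232 normalized fragments in 189N3 mice against 33979 to 54444 in the littermates. The sums of the 8 skin genes were 241.1 to 319.6 against 338.4 to 3536, and those of the 8 muscle and connective tissue genes 1192 to 2084 against 2013 to 5758. No gene of these lists was at 0 in all libraries of a group, and their part in the value of Gadd45g was not tested. Plk2 (0.35 ± 0.23 SE) and Sik1 (0.42 ± 0.29 SE) had the next smallest p-values in that model. In Dp(16)1Yey/+ mice the smallest p-values were those of Per1, Arc and Sik1. Arc, whose product works at active synapses, measured 42.8 ± 19.8 (SD, n = 4) against 62.6 ± 8.39 (SD, n = 4) normalized fragments. Its log2 fold change was -0.65 ± 0.32 (SE), with an adjusted p of 0.909 in limma and an exact permutation p of 0.114. Per1 had a log2 fold change of -0.57 ± 0.27 (SE) and Sik1 of -0.46 ± 0.23 (SE).

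Between the wild types, 4 of 34 other rapid response genes passed the adjusted threshold in limma, all higher in the littermates of Dp(16)1Yey/+ mice (2.29% of all loci passed in this direction). Sik1, a kinase induced by cAMP, measured 544.7 ± 67.4 (SD, n = 4) against 276.8 ± 27.5 (SD, n = 3) normalized fragments. The log2 difference was 0.97 ± 0.15 (SE), with an adjusted p of 0.0309 in limma. Arc (1.11 ± 0.23 SE, adjusted p = 0.0424 in limma), Gadd45g (0.96 ± 0.21 SE, adjusted p = 0.0436) and Btg2 (0.80 ± 0.18 SE, adjusted p = 0.0448) were the others. These calls were fragile. None of the 4 passed with the replicate block, with no trend or with the nearly alike pairs averaged, nor on leaving out any 1 library, except Sik1 without littermate 1 of Dp(16)1Yey/+ mice (adjusted p = 0.0462 in limma). Over all loci the calls fell from 1351 to between 13 and 78 on leaving out 1 library. None of the 4 genes passed between a model and its own controls. Of 6 erythroid genes tested, 5 passed in the other direction between the same wild types, where 1.46% of all loci did, and 0 to 5 passed on leaving out 1 library. The 7 erythroid genes summed to 4588 to 17219 in the littermates of Dp(16)1Yey/+ mice against 33979 to 54444 in those of 189N3 mice. The skin genes summed to 186.0 to 282.1 against 338.4 to 3536 and the muscle and connective tissue genes to 473.9 to 1126 against 2013 to 5758. The part of these tissues in the values was not tested.

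The delayed response genes are those that immediate early factors switch on later. None of 13 tested passed the adjusted threshold in limma in either model. In Dp(16)1Yey/+ mice 11 of the 13 were below 0 (45.1% of all loci), with a median of -0.57, and 3 had an unadjusted p under 0.05, all lower (1.82% of all loci). The 16 named genes summed to 4610 and 4544 normalized fragments in littermates 2 and 3, against 2968 and 2947 in littermates 0 and 1 and 2760 to 3033 in Dp(16)1Yey/+ mice, so the littermates that stood apart for Egr3 stood apart here too. The list shares Penk with the striatal markers, so it is not a fully separate set of genes. Rasgrp1, an activator of Ras, measured 112.4 ± 39.5 (SD, n = 4) against 247.2 ± 119.1 (SD, n = 4) normalized fragments. On the log2 scale the fold change was -1.05 ± 0.35 (SE), with an adjusted p of 0.909 in limma and an exact permutation p of 0.0857. Pcsk1, a convertase of prohormones, had a log2 fold change of -0.53 ± 0.21 (SE) and Nptx2, a secreted pentraxin of synapses, of -0.78 ± 0.35 (SE). In 189N3 mice the median was 0.20, the sums were highest in 189N3 replicate 2 (5301) and wild-type replicate 1 (4493), and the smallest p-values were those of Inhba (0.46 ± 0.26 SE), Mmp9 (0.31 ± 0.28 SE) and Kcna1 (0.25 ± 0.23 SE).

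The regulators upstream, the kinases and transcription factors that carry the signal to the promoters, come before the members in the pathway. All 29 listed genes were tested and none passed the adjusted threshold in limma in either model. In 189N3 mice 25 of the 29 were above 0 (43.8% of all loci), the median log2 fold change being 0.15. Replicate 2 of 189N3 stood apart, its sum of the 29 genes being 59638 normalized fragments against 45838 and 34916 in replicates 0 and 1 and 34643 to 42093 in the littermates. In Dp(16)1Yey/+ mice 22 were below 0 (45.1% of all loci) and the median was -0.25. Here the sums were 43679 and 44355 in littermates 2 and 3, 30855 and 30630 in littermates 0 and 1, and 30581 to 49394 in Dp(16)1Yey/+ mice. Mef2c, a factor of maturing neurons, was the only one with an unadjusted p under 0.05, at 12439 ± 4179 (SD, n = 3) in 189N3 mice against 7434 ± 3021 (SD, n = 3) normalized fragments. Its groups overlapped, and the log2 fold change was 0.77 ± 0.33 (SE), with an adjusted p of 1.00 in limma and an exact permutation p of 0.3. Camk2a (0.51 ± 0.38 SE) and Crtc3 (0.26 ± 0.24 SE) followed in 189N3 mice. In Dp(16)1Yey/+ mice the smallest p-values were those of Rps6ka1 (-0.54 ± 0.27 SE), Rps6ka2 (-0.42 ± 0.23 SE) and Camk2a (-0.96 ± 0.52 SE). None of these differences in Dp(16)1Yey/+ mice had an unadjusted p under 0.05.

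Heat shock and stress genes, which respond to heat, damaged proteins and the handling of tissue, were taken beside them. Of 8 with a mean of at least 10 in both groups, none had an unadjusted p under 0.05 in either model, and the median log2 fold change was 0.02 in 189N3 mice and -0.0040 in Dp(16)1Yey/+ mice. Hsp90aa1, the inducible cytosolic HSP90 chaperone, measured 29611 ± 6051 (SD, n = 4) in Dp(16)1Yey/+ mice against 24384 ± 1665 (SD, n = 4) normalized fragments in the littermates. The groups did not overlap (1.72% of all loci were higher without overlap), and its log2 fold change was 0.26 ± 0.16 (SE), with an adjusted p of 0.909 in limma and an exact permutation p of 0.029, the smallest this design can give. Between the wild types Hsp90aa1 passed the adjusted threshold at -0.77 ± 0.13 (SE), being lower in the littermates of Dp(16)1Yey/+ mice (adjusted p = 0.0315 in limma), and did not pass on leaving out any 1 library. Bag3, a partner of HSP70 chaperones, had a log2 fold change of -0.47 ± 0.50 (SE) in 189N3 mice and -0.35 ± 0.32 (SE) in Dp(16)1Yey/+ mice. Hspb1, a small heat shock protein, measured 8.84 ± 4.84 (SD, n = 3) in 189N3 mice against 20.5 ± 7.79 (SD, n = 3) normalized fragments and is given without a test, since it reached the minimum only through its littermates.

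Of the members, Junb, Egr3, Npas4 and Nr4a1 were assembled with 3 isoforms each and the other 6 with 1. The main Junb isoform (uc009moo.1) took 88.0% of the locus. For Egr3 the largest share, 62.6%, went to uc033gru.1, followed by uc007unb.2 (23.0%) and uc007unc.2 (14.3%). These shares are estimates from few fragments, and no isoform of a member passed the adjusted threshold in limma in either model. The log2 fold change of uc033gru.1 in Dp(16)1Yey/+ mice was 0.20 ± 1.77 (SE) and that of uc007unb.2 -0.67 ± 1.88 (SE), so that the isoform values did not resolve which transcript carried the difference at the Egr3 locus.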

How the data were processed

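Per the labels and the study's methods, the authors aligned reads to mm10 with TopHat and Bowtie and quantified transcripts with Cufflinks. The deposited signal values are fragments per locus, or estimated shares per isoform, divided by 1 size factor per library. All gene values up to 1000 fragments were whole multiples (tolerance 0.1) of 0.816 to 1.21 units, so fragments were recovered. Loci were named through the deposited map locus whose isoforms sum to them (20514 named).

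Here log2(value + 1) was tested with limma 3.58.1 (R 4.3.3, trend, no covariate) over loci with a mean of at least 10 (a named gene that reached it through 1 group alone is given by its values), with Benjamini-Hochberg adjustment over all loci at 0.05. Exact permutation tests of members, Dyrk1a and named list genes (Python 3.11.15) were two-sided and unadjusted. Their smallest p was 0.1 for 3 against 3 and 0.029 otherwise. Scripts were tested on simulated data. At 20809135 to 29098453 fragments, low members rest on few counts. Coordinates are GENCODE vM21 (GRCm38). Members, lists and tests were chosen with earlier results of these data known. Named genes are the members, Dyrk1a, list genes past the adjusted threshold or with the 3 smallest p-values in a model (2 for stress genes; genes of other cell types only beside a result), and the 5 loci most like the members. Alternatives were other pseudocounts, filters, scalings and fits, edgeR 4.0.16, DESeq2 1.42.0 and each library left out. 1 striatal marker is not reported here and was left out of its list.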

Additional observations from a re-analysis of the deposited data

How the results depend on the processing

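None of the 8 members with a mean of at least 10 over all libraries passed the adjusted threshold in any comparison under any alternative (644 tests in limma, edgeR or DESeq2). Directions were less firm. In 189N3 mice Nr4a1 turned from -0.11 to 0.0736 in edgeR and 0.13 in DESeq2, and Dusp1 from -0.08 to 0.0033 in edgeR and 0.0569 in DESeq2. Leaving out each library in turn, the log2 fold changes in 189N3 mice ran from -0.46 to 0.22 for Fos, from -0.10 to 0.48 for Egr1, from -0.15 to 0.83 for Egr3, from -0.46 to 0.49 for Nr4a1 and from -0.35 to 0.32 for Dusp1. The sign turned for Fos without 189N3 replicate 0, for Nr4a1 and Dusp1 without replicate 1, and for Egr1 and Egr3 without replicate 2. By the same omissions, the median of the members ran from -0.18 to 0.26 in 189N3 mice and from -0.36 to -0.14 in Dp(16)1Yey/+ mice. Without littermates 2 and 3 of Dp(16)1Yey/+ mice, an alternative added after the values were seen, Egr1 (0.12), Ier2 (0.0252) and Dusp1 (0.14) were above 0. The cause was not tested.

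The replicate block gave 0 called members in each comparison, and Egr3 in Dp(16)1Yey/+ mice stayed at -1.69 with an unadjusted p of 0.0147 in limma. The numbers share no stated origin. As deviations from their group means, same-numbered samples of a model and its littermates correlated between -0.58 and 0.01. By these deviations no sample correlated best with its own number. Averaging the nearly alike pairs left Egr3 at -1.69 with an unadjusted p of 0.0363 in limma, while its interaction had an unadjusted p of 0.0526. Between the wild types the 1351 calls over all loci became 30 with these pairs averaged, 75 with the replicate block, 85 with no trend, 614 with no filter and 3262 in DESeq2. Fosb (0 to 3 fragments per library) and Npas4 (1 to 25) were too low for a test.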

Other observations

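Beside several members the assembly holds separate loci that the map places next to the gene but leaves unnamed. The largest relative to its gene was beside Egr1, with a mean of 22.3 normalized fragments over the 14 libraries against 17.9 for Egr1 itself. It measured 18.9 on average in 189N3 mice and 14.2 in their littermates, and 27.5 in Dp(16)1Yey/+ mice against 25.8. The locus beside Egr2 had a mean of 7.14 (50.7% of Egr2), that beside Fos 6.95 (42.1% of Fos), that beside Ier2 10.5 (30.6% of Ier2), that beside Egr3 11.6 (29.3% of Egr3) and that beside Junb 4.80 (6.76% of Junb). Of 5 such loci at Dusp1, the highest, which the map marks as lying on the opposite strand, had a mean of 36.0 (10.4% of Dusp1). The locus beside Egr3 averaged 14.4 in Dp(16)1Yey/+ mice and 8.73 in their littermates, whereas Egr3 itself averaged 16.8 and 57.2. Whether these loci belong to the transcripts of the members was not tested, and they were not added to the values of the members.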
